A study of Mus musculus with 6 samples.

Results

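A set of integrin subunit genes was examined in CFPAC-1 cells together with the genes of the focal adhesion kinase FAK and the integrin-linked kinase ILK. The set was defined by name as 9 genes of the 30543 in the gene count table: the alpha subunit genes ITGA2, ITGA5 and ITGAV, the beta subunit genes ITGB1, ITGB5, ITGB6 and ITGB8, the FAK gene PTK2, and ILK. All 9 were found by their human Ensembl identifiers. CFPAC-1 is a human pancreatic adenocarcinoma (PAAD) cell line. The cells received either siRNA against KRT7, a keratin of simple epithelia, in 3 libraries (si-KRT7), or a control siRNA in 3 further libraries (si-Control). Polyadenylated RNA was sequenced on the DNBSEQ platform. Both groups thus share the cell line and a transfection, and the labels give no time after transfection, siRNA duplex or batch. The study lists more than a single siRNA duplex against KRT7, and which of them each si-KRT7 library received is not given. The sample labels give mouse as the organism, but all identifiers in the table are human. The labels do not say whether the replicates came from separate cultures. A legend in the study speaks of independent experiments for a set of panels that includes the RNA-seq, without naming the libraries. The p-values measure the spread between these libraries, which may in part be technical.

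Integrins are heterodimers of an alpha and a beta subunit that bind matrix proteins outside the cell and couple to actin inside it. ITGA2 and ITGA5 pair with ITGB1 to form receptors for collagen and fibronectin. ITGAV pairs with ITGB1, ITGB5, ITGB6 or ITGB8, and its dimers recognise the RGD motif of matrix ligands such as vitronectin, or of the latent form of TGF-beta. When integrins cluster, FAK is recruited and activated as a tyrosine kinase, while ILK serves as a scaffold that links beta subunit tails to actin. In carcinoma of the pancreas these receptors are known for their part in adhesion to a dense collagenous stroma.

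The libraries held between 28208896 and 36315802 counts. Replicate 2 of si-KRT7 was the shallowest and stood apart from its group: its correlation with si-KRT7 replicates 1 and 3, over the log2 CPM (read counts scaled to library size) of the 15736 genes tested, was 0.982 with each, whereas replicates 1 and 3 had 0.992 with each other. With each si-Control library si-KRT7 replicate 2 had 0.986, more than with its own group. For si-KRT7 replicates 1 and 3 the correlation with si-Control libraries was 0.983 to 0.986. The identifiers are not paired with gene names in the sources used here, so KRT7 itself was not looked up. ENSG00000135480, the gene with the largest decrease past both limits described below and a mean of at least 50 counts, fell to 12.2%, 18.3% and 12.6% of its average in si-Control in si-KRT7 replicates 1, 2 and 3. It was chosen after its values were seen and is not named here, but it was low in replicate 2 as well. The fold changes of the genes tested, the ratios and the shares are therefore given with and without that library.

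Of the 9 genes, 8 passed edgeR's filter on low counts and ILK did not. In si-KRT7 against si-Control cells the fibronectin receptor subunit ITGA5 fell to 0.658-fold, and it alone of the 8 had an adjusted p under 0.05 (edgeR's quasi-likelihood test with Benjamini-Hochberg adjustment over all genes tested). Over all genes tested, 2.07% passed that limit, 0.712% with a higher and 1.35% with a lower level in si-KRT7. None of the 8 also passed an absolute log2 fold change of 1, a limit that 0.292% of all genes passed. In the same edgeR test 4 of the 8 had an unadjusted p under 0.05, and 0 of these passed the fold change limit. The share of all genes with an unadjusted p under 0.05 was not taken, so this count of 4 has no background and is not read as a result. DESeq2 and limma-voom likewise put 0 of the 8 past both limits. The log2 fold change was positive in 5 and negative in 3 genes, with a median of 0.103 against 0.0113 over all genes tested. The median absolute log2 fold change was 0.343, against 0.176 over all genes tested.

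**Figure D1:**
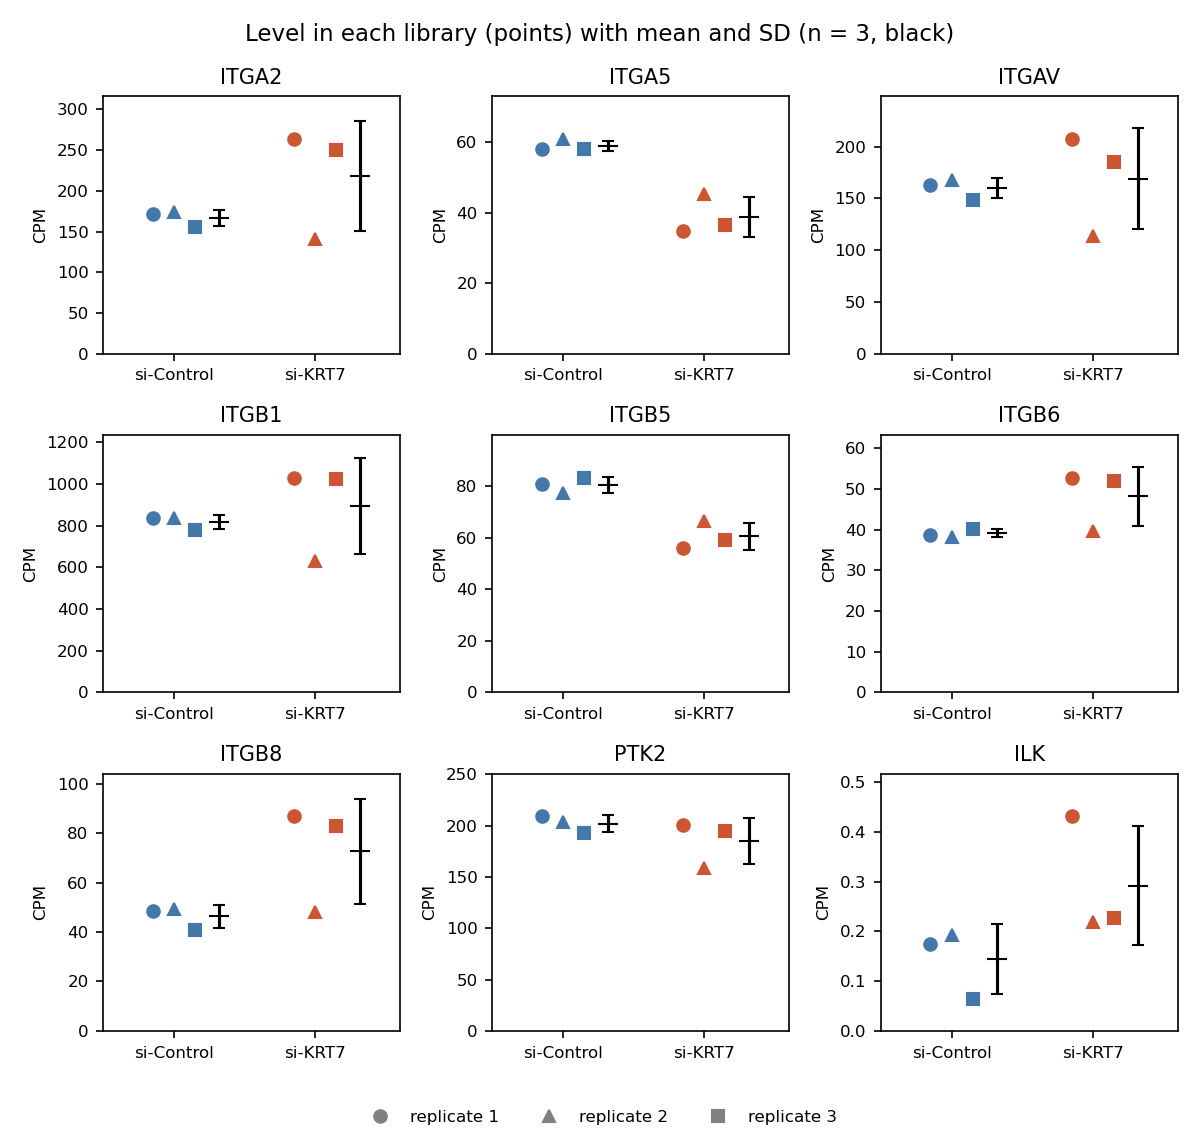
Level of each of the 9 genes in CPM (vertical axes, each starting at 0) in the 3 si-Control (blue) and 3 si-KRT7 (orange) libraries. Symbols mark the replicate, and black bars give the mean and SD. Replicate 2 of si-KRT7 (orange triangle) lay below the other 2 si-KRT7 libraries in ITGA2, ITGAV, ITGB1, ITGB6, ITGB8 and PTK2, and above them in ITGA5 and ITGB5. In ILK it was also the lowest of si-KRT7, at 0.218 CPM against 0.227 CPM in replicate 3.

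Among the alpha subunits, ITGA5 (ENSG00000161638) was lower in every si-KRT7 library. Its level was 58.2, 60.8 and 58.2 CPM in si-Control replicates 1, 2 and 3 and 34.8, 45.4 and 36.4 CPM in those of si-KRT7. The groups did not overlap, and replicate 2 was the nearest to si-Control. The means were 59.0 ± 1.48 CPM (SD, n = 3) and 38.9 ± 5.69 CPM (SD, n = 3), with a log2 fold change of -0.60 (standard error 0.113, 95% interval -0.86 to -0.35, adjusted p = 0.0379 in edgeR). By a two-sided exact permutation test p was 0.1, which is the lowest value attainable with 3 libraries in each group. Without si-KRT7 replicate 2 the log2 fold change was -0.73 (adjusted p = 5.65e-10 in edgeR). Omitting any of the other 5 libraries instead put the adjusted p in edgeR between 0.131 and 0.215, so the call was lost each time. With the replicate number as a block the adjusted p was 0.0783 in edgeR.

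ITGA2 (ENSG00000164171), the collagen-binding subunit, differed between the si-KRT7 libraries themselves. It stood at 171, 174 and 156 CPM in si-Control replicates 1, 2 and 3, at 263 and 250 CPM in si-KRT7 replicates 1 and 3, and at 141 CPM in replicate 2, below every si-Control library. The log2 fold change over all 6 libraries was 0.38 (95% interval -0.091 to 0.86, adjusted p = 0.367 in edgeR). Without replicate 2 it was 0.61 (95% interval 0.53 to 0.70, adjusted p = 3.39e-11 in edgeR).

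ITGAV (ENSG00000138448), the shared partner of the 4 beta subunits here, had the same split. Its level was 163, 168 and 149 CPM in si-Control replicates 1, 2 and 3, then 207 and 185 CPM in si-KRT7 replicates 1 and 3, and 114 CPM in replicate 2. Thus 2 si-KRT7 libraries lay above and the remaining library below the si-Control range. The log2 fold change was 0.075 (95% interval -0.37 to 0.52, adjusted p = 0.872 in edgeR), and 0.29 without replicate 2 (adjusted p = 2.41e-05 in edgeR). Without si-KRT7 replicate 1 it turned to -0.10 (adjusted p = 0.871 in edgeR).

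Among the beta subunits, ITGB1 (ENSG00000150093), the common partner of many alpha subunits, had the most reads of the set, with 17284 to 38229 counts per library. In si-Control replicates 1, 2 and 3 it stood at 835, 837 and 777 CPM. In si-KRT7 replicates 1 and 3 it reached 1029 and 1024 CPM, and in replicate 2 it was 628 CPM, again on the other side of the si-Control range. The log2 fold change was 0.13 (95% interval -0.26 to 0.52, adjusted p = 0.733 in edgeR), and 0.33 without replicate 2 (adjusted p = 2.27e-08 in edgeR).

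ITGB5 (ENSG00000082781), whose dimer with ITGAV binds vitronectin, was the other of the 8 genes tested, with ITGA5, whose groups did not overlap. Its level was 80.7, 77.3 and 83.2 CPM in si-Control replicates 1, 2 and 3 and 56.1, 66.3 and 59.1 CPM in those of si-KRT7. The log2 fold change of -0.41 (standard error 0.0905, 95% interval -0.62 to -0.20) had an adjusted p of 0.0631 in edgeR, outside the limit, with a two-sided exact permutation p of 0.1. Without replicate 2 the log2 fold change was -0.48 (adjusted p = 5.75e-08 in edgeR). Of the 8 genes, 2 thus had groups that did not overlap, both lower in si-KRT7. Over all genes tested, 24.4% did not overlap, 11.3% with the higher and 13.0% with the lower level in si-KRT7.

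ITGB8 (ENSG00000105855) and ITGB6 (ENSG00000115221), whose dimers with ITGAV are known to bind and activate latent TGF-beta, had positive log2 fold changes. ITGB8 stood at 48.7, 49.3 and 41.0 CPM in si-Control replicates 1, 2 and 3 and at 86.8, 48.2 and 83.0 CPM in those of si-KRT7. Its log2 fold change of 0.65 (95% interval 0.18 to 1.12, adjusted p = 0.147 in edgeR) was the largest in size of the 8. ITGB6 stood at 38.7, 38.3 and 40.2 CPM in si-Control and at 52.7, 39.7 and 52.0 CPM in si-KRT7 replicates 1, 2 and 3, with a log2 fold change of 0.30 (95% interval 0.030 to 0.58, adjusted p = 0.224 in edgeR). For both genes si-KRT7 replicate 2 lay inside the si-Control range, while replicates 1 and 3 lay above it. Across all genes tested, replicate 2 lay inside that range for 26.4%. Without replicate 2 the log2 fold change was 0.87 for ITGB8 (adjusted p = 1.42e-10 in edgeR) and 0.42 for ITGB6 (adjusted p = 2.37e-06 in edgeR).

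PTK2 (ENSG00000169398), which encodes FAK, overlapped between the groups. It stood at 209, 204 and 193 CPM in si-Control replicates 1, 2 and 3 and at 201, 159 and 195 CPM in those of si-KRT7, so that replicates 1 and 3 fell within the si-Control range and replicate 2 below it. The log2 fold change was -0.12 (95% interval -0.35 to 0.11, adjusted p = 0.555 in edgeR), and -0.028 without replicate 2 (95% interval -0.11 to 0.049, adjusted p = 0.589 in edgeR). It was the only one of the 8 that passed the adjusted p in none of the 15 alternatives run.

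ILK (ENSG00000166333) was close to undetected under its identifier, although it is known as a gene that most cell types express. It had 6, 7 and 2 counts in si-Control replicates 1, 2 and 3 and 16, 6 and 7 counts in those of si-KRT7, or 0.0636 to 0.431 CPM. The groups did not overlap in CPM (two-sided exact permutation p = 0.1), although the highest si-Control library, at 0.193 CPM, and the lowest si-KRT7 library, at 0.218 CPM, held 7 and 6 counts. The exact Poisson interval of the lowest library was 0.242 to 7.22 counts and that of the highest 9.15 to 26.0 counts, and both cover counting error only. An edgeR fit without a filter on counts gave a log2 fold change of 0.99 with a 95% interval of -0.48 to 2.47 (adjusted p = 0.645). No difference was detectable at these counts, and why so few reads were counted on this identifier was not tested.

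**Figure D2:**
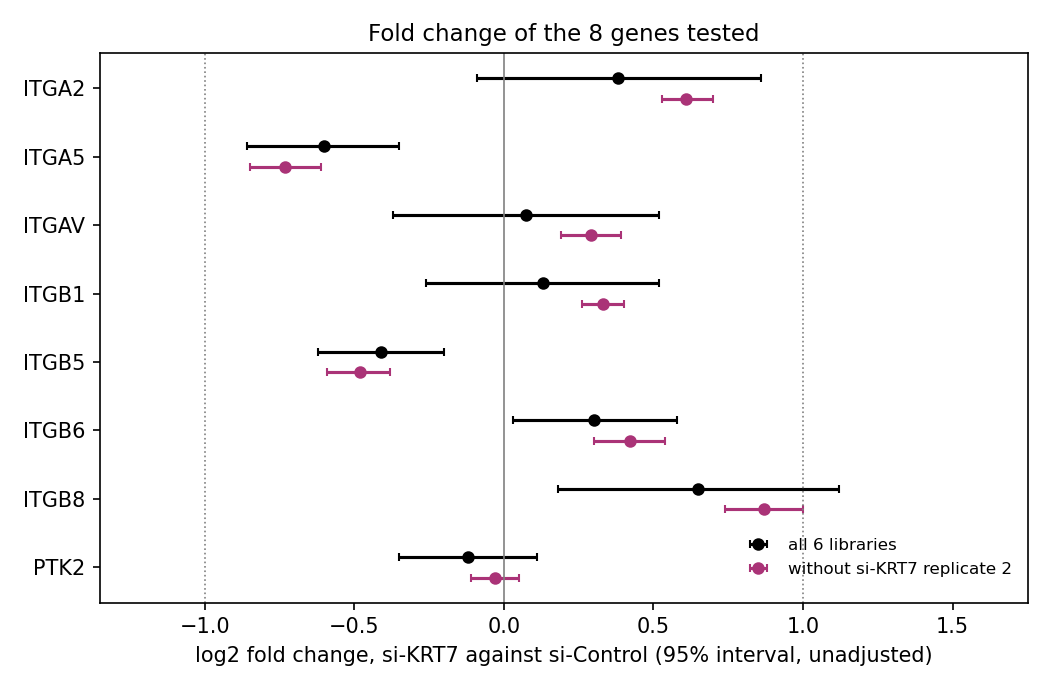
Log2 fold change of si-KRT7 against si-Control (horizontal axis) with its 95% interval, not adjusted for multiple tests, for the 8 genes tested, over all 6 libraries (black) and without si-KRT7 replicate 2 (purple). Dotted lines mark a log2 fold change of -1 and 1. ITGA5 and ITGB5 lie left of 0 in both fits, and the interval of PTK2 includes 0 in both.

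Without si-KRT7 replicate 2, 7 of the 8 genes had an adjusted p under 0.05 in edgeR. ITGA2, ITGAV, ITGB1, ITGB6 and ITGB8 rose in that fit and ITGA5 and ITGB5 fell. None passed the fold change limit as well, which 2.20% of all genes did. This count has to be read against the background, as 42.9% of the 16202 genes tested in that fit passed the adjusted p, 20.9% higher and 22.0% lower. That background is not of like abundance: by mean CPM over all 6 libraries the 8 genes lay at percentiles 68.9 to 99.2 of the 15736 genes. A background of genes with similar counts was not taken, here or for the shares without overlap. The biological coefficient of variation was 0.0485 without replicate 2 and 0.130 with it. The fit compares 2 libraries with 3, and the library was set aside after its position was known.

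In the 8 genes the lowest count was 1093, in ITGB6, for which Poisson error alone gives a coefficient of variation of 3.02%. The spread between si-KRT7 libraries was larger than counting error gives in each of the 8. Between si-Control libraries the coefficient of variation was 2.51% for ITGA5 and 2.67% for ITGB6. These were not set against counting error, as the lowest counts of both genes, 1121 and 1093, were in si-KRT7 libraries. Between the si-Control libraries the median coefficient of variation of the 8 genes was 4.15%, against 6.15% over all genes tested. Between the si-KRT7 libraries it was 20.4%, against 16.0% over all genes tested, and it ranged from 8.64% in ITGB5 to 30.9% in ITGA2.

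**Figure D3:**
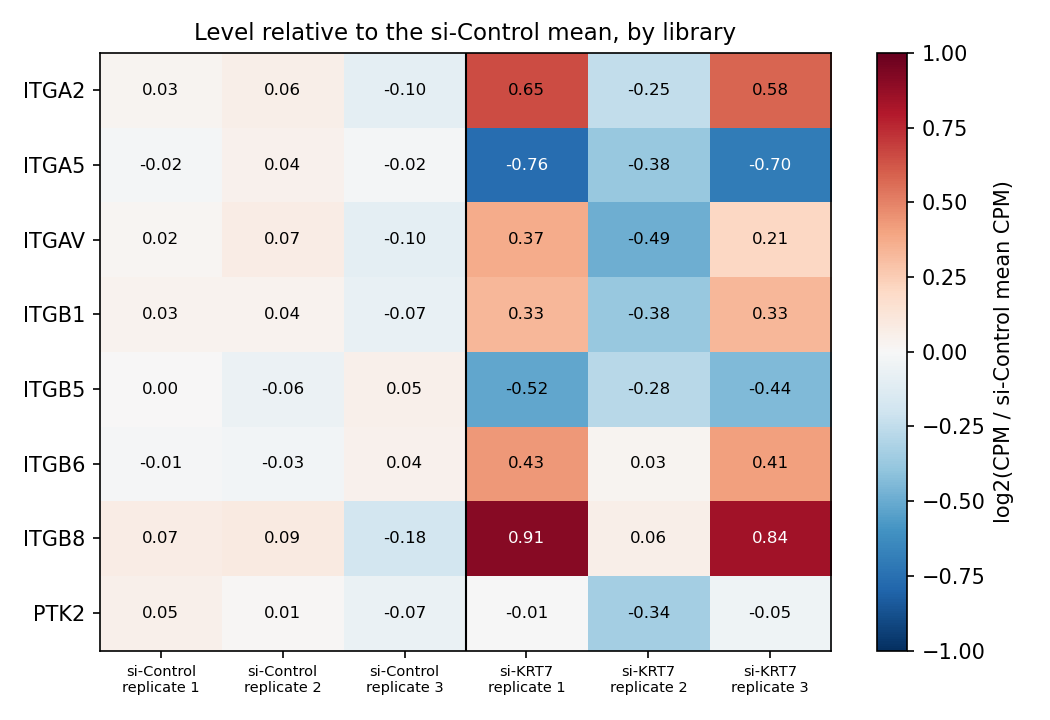
Log2 ratio of the CPM in each library (columns) to the si-Control mean of the same gene (rows), red where higher and blue where lower. Replicates 1 and 3 of si-KRT7 lie on the same side of the si-Control mean in every gene (PTK2 close to it), while replicate 2 is lower than the si-Control mean in 6 of the 8, among them ITGA2, ITGAV and ITGB1.

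The genes were also compared by their profile over the 6 libraries, taken as log2 CPM (prior count of 2) minus the gene's own si-Control mean. ITGAV and ITGB1 were the most alike, with a root mean square difference of 0.0716 on the log2 scale over 6 libraries. For ITGAV, 63 of the other 15735 genes tested were at least that near, ITGB1 included, and for ITGB1 the number was 198. ITGA5 was nearest to ITGB5 and ITGB5 to ITGA5 (0.157), with 242 genes at least as near to ITGA5 and 1064 to ITGB5. ITGA2 and ITGB6 were nearest to each other (0.175), with 906 and 2423 genes at least as near. ITGB8 was nearest to ITGA2 (0.20, 390 genes) and PTK2 to ITGAV (0.198, 4392 genes). Many genes outside the set thus lay as near as the nearest member did. These distances share the libraries and the si-Control mean and are descriptions without a test.

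Because an integrin needs both subunits, the ratio of the counts was taken within each library for pairs of an alpha and a beta subunit. These were ITGA2 or ITGA5 with ITGB1, and ITGAV with each beta subunit. With ITGB6:ITGB5, ITGB8:ITGB5, ITGA2:ITGA5 and PTK2:ILK, which are not subunits of one integrin, this made 10 pairs. Library size cancels in such a ratio. Gene length cancels only in its difference between groups, so the ratios themselves do not give the proportion of molecules. The groups did not overlap in 5 of the 9 pairs of tested genes, nor in the pair of PTK2 and ILK. Of the pairs of an alpha and a beta subunit, only ITGA2:ITGB1 and ITGAV:ITGB8 did not overlap. Over all 123127278 pairs of tested genes with a count in every library, 23.9% did not overlap. The pairs share genes, so they are not separate observations, and they were chosen with earlier results of these data known. In ITGB6:ITGB5, ITGB8:ITGB5 and ITGA2:ITGA5 the first gene had a positive and the second a negative log2 fold change. The 5 of 9 pairs are therefore not read as an excess over the 23.9%. In each of these 6 pairs of the 10 the two-sided exact permutation p was 0.1, the smallest possible, and 0.167 after Benjamini-Hochberg adjustment over the 10 pairs, so no pair could pass a limit of 0.05 in this design.

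Of the 10 ratios, that of ITGAV to its partner ITGB8 had the smallest SD within si-KRT7, though not within si-Control. Its log2 value was 1.74, 1.77 and 1.86 in si-Control replicates 1, 2 and 3 and 1.25, 1.24 and 1.15 in those of si-KRT7. Here si-KRT7 replicate 2 lay with the other si-KRT7 libraries, although the level of each gene in it did not. The difference was -0.58, or 0.671-fold, with SDs of 0.0659 and 0.0536 (n = 3 each), and it stayed between -0.60 and -0.54 when any library was left out, at -0.59 without si-KRT7 replicate 2.

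Relative to ITGB5, the counts of ITGB8 and of ITGB6 were higher in every si-KRT7 library than in any si-Control library. The log2 ratio of ITGB8 to ITGB5 was -0.73, -0.65 and -1.02 in si-Control replicates 1, 2 and 3 and 0.63, -0.46 and 0.49 in those of si-KRT7, a difference of 1.02. That of ITGB6 to ITGB5 was -1.06, -1.01 and -1.05 in si-Control and -0.090, -0.74 and -0.18 in si-KRT7, a difference of 0.70. In both pairs replicate 2 lay on the side of its own group but near si-Control, and without it the differences were 1.36 and 0.90.

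For the ITGB1 dimers, the log2 ratio of ITGA2 to ITGB1 was -2.29, -2.26 and -2.31 in si-Control replicates 1, 2 and 3 and -1.97, -2.16 and -2.03 in those of si-KRT7, a difference of 0.23 with no overlap, or 0.29 without si-KRT7 replicate 2. The ratio of ITGA5 to ITGB1 did overlap. It was -3.84, -3.78 and -3.74 in si-Control and -4.88, -3.79 and -4.81 in si-KRT7, a difference of -0.71 that was -1.06 without replicate 2 and -0.51 without replicate 1 of si-KRT7 (two-sided exact permutation p = 0.2). The ratio of ITGA2 to ITGA5, the collagen against the fibronectin subunit, was 1.55, 1.52 and 1.43 in si-Control and 2.92, 1.63 and 2.78 in si-KRT7. Its difference of 0.94 was 1.35 without replicate 2.

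The remaining ITGAV pairs overlapped between groups, with differences of -0.065 against ITGB1, 0.44 against ITGB5 and -0.26 against ITGB6. All 3 depended on the libraries used. Against ITGB5 the difference was 0.77 without si-KRT7 replicate 2 and 0.22 without replicate 1. Against ITGB6 it was -0.13 without replicate 2 and -0.36 without replicate 1. Against ITGB1 it was -0.040 without replicate 2, -0.12 without replicate 1 and -0.038 without replicate 3. The ratio of PTK2 to ILK differed by -1.24 without overlap, but it rests on the 2 to 16 counts of ILK and was -0.76 without si-Control replicate 3, the library with 2 counts, and -1.30 without si-KRT7 replicate 2.

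**Figure D4:**
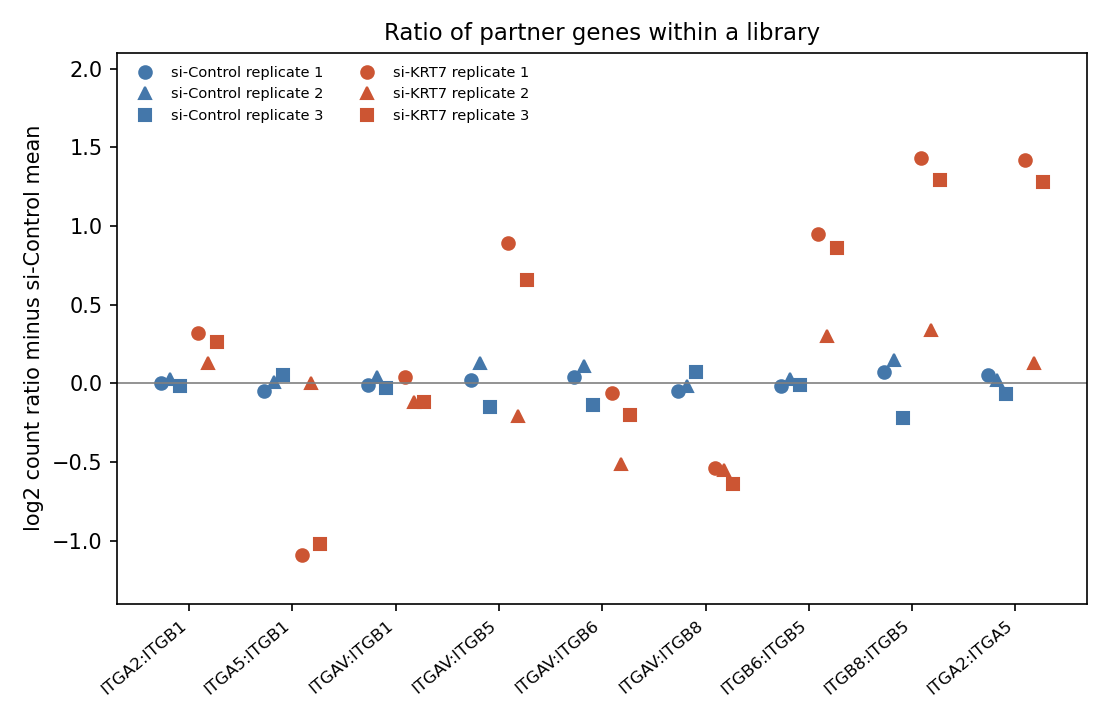
Log2 ratio of the counts of the 2 genes of a pair within a library, minus the si-Control mean of that ratio (vertical axis), for 9 pairs. Symbols mark the replicate of si-Control (blue) and si-KRT7 (orange). For ITGAV:ITGB8 all 3 si-KRT7 libraries lie together below the si-Control libraries, whereas in ITGB6:ITGB5, ITGB8:ITGB5 and ITGA2:ITGA5 replicate 2 is the si-KRT7 library nearest to si-Control. The PTK2:ILK pair is left out, as ILK had 2 to 16 counts.

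ITGB5, ITGB6 and ITGB8 pair with ITGAV alone among these alpha subunits, and together they held 4241 to 7268 counts per library. ITGB5 took 48.0%, 46.9% and 50.6% of these counts in si-Control replicates 1, 2 and 3 and 28.7%, 43.0% and 30.4% in those of si-KRT7. The exact Clopper-Pearson 95% interval of replicate 2, 41.5% to 44.5%, lay below the lowest si-Control interval, 45.6% to 48.2%, and above those of the other si-KRT7 libraries, which reached 31.6% at most. These intervals cover counting error in single libraries only: si-Control replicates 2 and 3 had intervals that did not overlap either, the latter being 49.2% to 52.0%.

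ITGB8 took 29.0%, 29.9% and 24.9% in si-Control and 44.4%, 31.2% and 42.8% in si-KRT7 replicates 1, 2 and 3. Its interval in si-KRT7 replicate 2, 29.8% to 32.7%, overlapped the 27.8% to 30.2% of si-Control replicate 1 and the 28.7% to 31.1% of si-Control replicate 2. It lay above the 23.8% to 26.1% of si-Control replicate 3. ITGB6 took 23.0%, 23.2% and 24.5% in si-Control and 27.0%, 25.8% and 26.8% in si-KRT7. Its difference was small, and si-KRT7 replicate 2 lay near the other si-KRT7 libraries.

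The mean share differed by -14.5 percentage points for ITGB5, 11.5 for ITGB8 and 2.95 for ITGB6. The 3 shares sum to the whole and are not independent. For each the two-sided exact permutation p was 0.1, also 0.1 after adjustment over the 3. Without si-KRT7 replicate 2 the differences for ITGB5, ITGB8 and ITGB6 were -18.9, 15.6 and 3.31 percentage points. These are shares of reads, and gene lengths were not used.

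**Figure D5:**
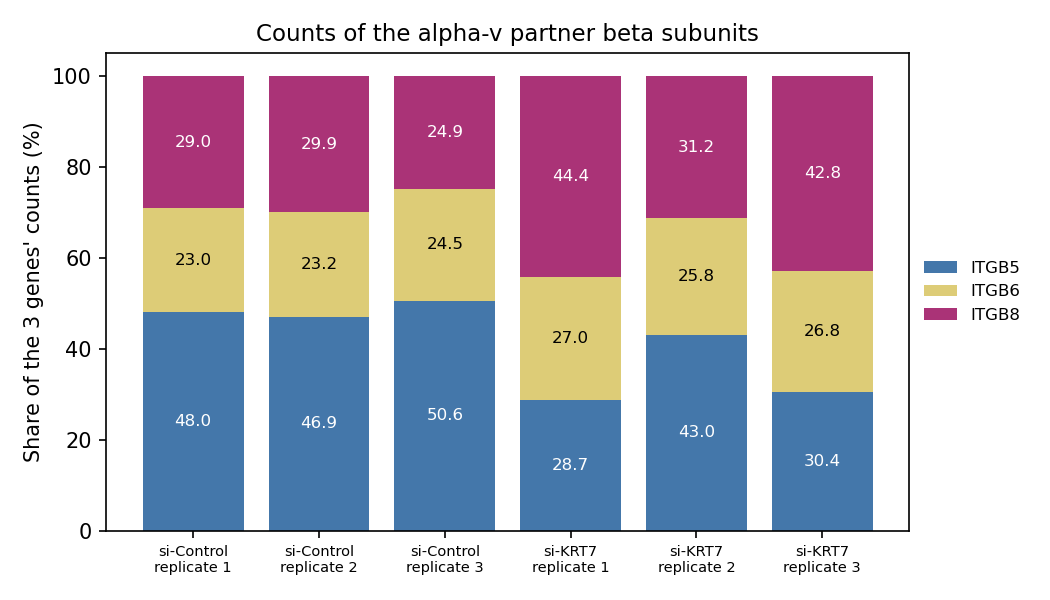
Share of ITGB5 (blue), ITGB6 (yellow) and ITGB8 (purple) in the summed counts of these 3 genes (vertical axis, percent) in each library. The ITGB5 share was 46.9% or more in si-Control, 28.7% and 30.4% in si-KRT7 replicates 1 and 3, and 43.0% in replicate 2.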

How the data were processed

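The 6 libraries comprised 3 of CFPAC-1 cells given si-Control and 3 given si-KRT7. The gene table deposited by the authors holds raw counts of reads as whole numbers, and 0 of its per-sample columns were left unused. The submitters' processing notes name STAR 2.7.11b and the mouse build GRCm39, while the identifiers are human Ensembl ones. The counting tool, strand setting and annotation are not given in the sources used here. Reads shared with overlapping genes or near-identical copies could therefore not be assessed.

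Testing used edgeR 4.0.16 in R 4.3.3 (filterByExpr, TMM, glmQLFit and glmQLFTest), with Benjamini-Hochberg adjustment over the 15736 genes kept, which held 99.9% of counts. Genes were called at an adjusted p under 0.05, or at that and an absolute log2 fold change above 1. The standard error was derived as the size of the log2 fold change divided by the square root of F. The 95% intervals are not adjusted. CPM used the TMM factors. Ratios of gene pairs and shares were tested with exact permutation tests. The alternatives were DESeq2 1.42.0, its size factors, total count only, voom from limma 3.58.1 (plain, or weighting samples by quality), a robust fit, other count filters, a replicate block and each library left out. The fits were tested on simulated data. The simulation gave all genes a common dispersion and held no library that stood apart from its group, so it does not cover that feature of these data.

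The 9 genes were named in full whatever their result, and the names come from the definition of the set. The members, pairs and lists were chosen with earlier results of these data known. Of the table's identifiers, 0 matched the name table used here, which is of the mouse. The lists of other integrins, adhesion adaptors, ligands and cell type markers, KRT7, gene lengths, positions and sequences were therefore not analysed here.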

Additional observations from a re-analysis of the deposited data

How the results depend on the processing

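Of the 8 genes tested, the number with an adjusted p under 0.05 was 1 in the edgeR fit. The numbers for the other settings have to be read against those over all genes in the same setting, which follow below. It was 4 without a filter on counts (ITGA2, ITGA5, ITGB5 and ITGB8), 3 with the DESeq2 Wald test (ITGA5, ITGB5 and ITGB8), 7 in limma-voom with sample quality weights and 0 with the replicate block. When 1 library was omitted it ran from 0 to 7, with 7 only without si-KRT7 replicate 2. It stayed at 1 with DESeq2 size factors, total count only, limma-voom, the robust fit and at least 10 counts in every library, and the number past both limits was 0 in all 15 alternatives.

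Over all 15736 genes of the edgeR fit, 325 had an adjusted p under 0.05 and 46 also passed the fold change limit. Of the 30543 genes fitted without a filter, these numbers were 1347 and 154. Of the same 15736 genes they were 1148 and 103 with DESeq2, 6858 and 443 with sample quality weights, and 76 and 25 with the replicate block. With a library left out they ran from 6 to 6944 and from 6 to 356, the highest of 16202 genes without si-KRT7 replicate 2. As a check of pairing, si-Control and si-KRT7 libraries with the same number were correlated over genes after removing group means. The values were 0.0520, -0.0798 and -0.0728 for replicates 1, 2 and 3. The si-KRT7 mean includes replicate 2, which stood apart from its group, so a small effect shared by number was not tested. ITGAV reversed without si-KRT7 replicate 1, to a log2 fold change of -0.10, the lower end of a range that reached 0.29 without si-KRT7 replicate 2. The other 7 genes kept their direction in the 15 alternatives. The cause was not tested. ILK, with 2 to 16 counts, was too low for a test in the edgeR fit.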
